A study of Drosophila melanogaster with 6 samples.

Results

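The right arm of the third chromosome (3R) of Drosophila melanogaster was examined outside its pericentric heterochromatin, the repeat-rich block beside the centromere. Peaks of 6 MeDIP-seq libraries were pooled, peaks that shared at least 1 bp were merged into regions, and regions on 3R that started above position 4200000 (dm6) were kept. This gave 728 regions, 16.0% of the 4538 regions of the series, and the inner part of the arm held another 230. MeDIP-seq recovers sheared genomic DNA with an antibody against 5-methylcytosine and sequences it beside an input library. All flies were wild type (labelled WT), all DNA came from adult heads, and all samples carried the label F3. Lead libraries, labelled 800 um, numbered 3, and so did control libraries, labelled 0 um. The labels do not say whether the F3 flies were themselves exposed. The labels give neither sex nor the number of animals per library, nor do they say whether replicates were separate cultures, so p-values reflect only how these samples vary, and that variation may be technical. The identity of the tissue could not be checked in peak lists of genomic DNA.

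Cytosine methylation of fly DNA is sparse. The genome lacks the maintenance and de novo DNA methyltransferases of vertebrates and keeps the relative Mt2, which is known mainly as a transfer RNA methyltransferase. A MeDIP peak therefore marks DNA recovered by the antibody above input, and a peak list alone does not show that its cytosines were methylated. The part of 3R studied here is gene-rich euchromatin and carries the Antennapedia and bithorax homeotic complexes, the Enhancer of split complex and many long neuronal genes.

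The lists held 3522, 1379 and 2536 peaks in lead replicates 1, 2 and 3, and 1746, 2414 and 2157 peaks in control replicates 1, 2 and 3. On the 3R segment these lists placed a peak in 530, 222 and 413 regions in the lead libraries and in 276, 375 and 350 regions in the control libraries. Lead replicate 1 was the richest and lead replicate 2 the poorest, and the control libraries lay between them. The read depth behind each list is not known, and the lack of a peak is no sign that a region was unmarked. The first regions inside the boundary were at 4264980 to 4265453, with a peak in 5 libraries, and at 4281309 to 4281525, with a peak in 1. The last outside it were at 4145377 to 4145962, with a peak in 6 libraries, and at 4161586 to 4161793, with a peak in 1.

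A core of 142 regions (19.5%) had a peak in all 6 libraries (91 when each list was limited to the 1379 highest-scoring peaks), while 254 (34.9%) were found in a single library. The other 332 regions were found in 2 to 5 libraries. In the rest of the series the shares were 19.6% in all 6 libraries and 35.6% in 1 library, so the segment lay within 1 percentage point of the remainder at both ends of the scale. Lead replicate 1 alone held 118 of the single-library regions, against 6 and 49 in lead replicates 2 and 3 and 19, 42 and 20 in control replicates 1, 2 and 3. Regions of the core made up 26.8%, 63.96% and 34.4% of the regions of lead replicates 1, 2 and 3, and 51.4%, 37.9% and 40.6% of those of control replicates 1, 2 and 3. Of the 222 regions of lead replicate 2, 91.0% also had a peak in lead replicate 1, whereas 38.1% of the regions of lead replicate 1 had one in lead replicate 2.

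Regions found in more libraries also ranked higher. Each peak's score is the authors' own and its meaning is not stated, so it was turned into a percentile within its own list, with 100 the highest. The median percentile was 20.8 for peaks of regions seen in 1 library, 31.3 in 2, 35.6 in 3, 42.7 in 4, 46.8 in 5 and 72.3 in 6. Median region width was 234 bp for regions in 1 library and 440.5 bp for those in 6, but a region merged from more peaks is at least as wide as each of them, so width is no separate measure here. Peaks of the core still reached far down the lists, since the quartiles of their percentiles were 51.1 and 88.0. A region's lowest percentile among the 6 libraries had a median of 50.8 over the core and ranged from 0.866 to 94.996. Over the core the median percentile was 80.5, 66.1 and 76.2 in lead replicates 1, 2 and 3. In control replicates 1, 2 and 3 it was 72.0, 69.5 and 73.7. Lead replicate 2, with the fewest peaks, was lowest and lead replicate 1, with the most, was highest. The libraries between them did not follow list length, with 69.5 in control replicate 2 (2414 peaks) and 72.0 in control replicate 1 (1746 peaks). The part of list length was not tested.

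**Figure D1:**
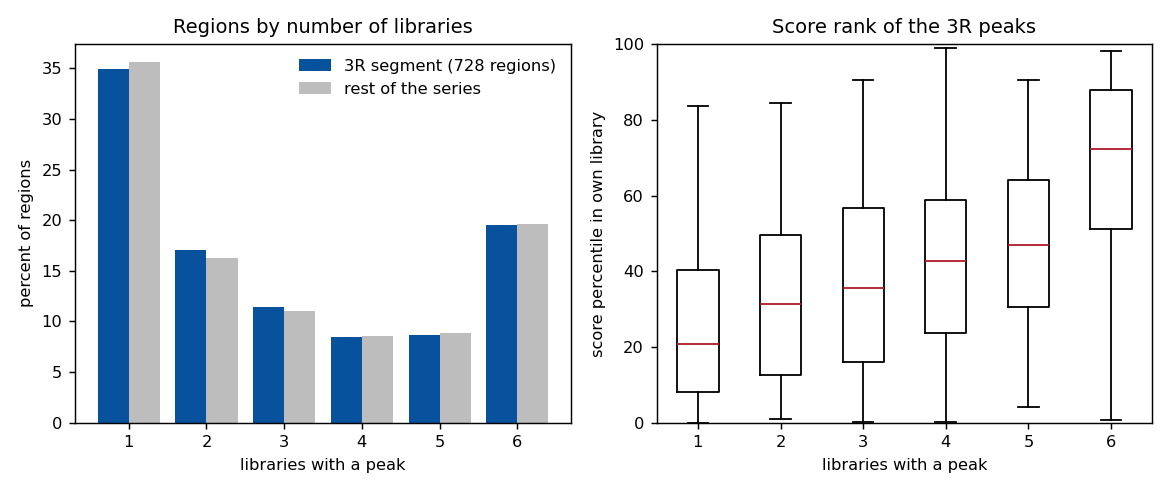
Left, percent of regions (y axis) by the number of libraries with a peak (x axis), for the 728 regions of the 3R segment and for the rest of the series. Right, score percentile of each 3R peak in its own library (boxes, quartiles; red line, median; whiskers, values within 1.5 times the box height), where the median is 20.8 for regions of 1 library and 72.3 for regions of all 6.

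None of the arm's peaks stood at the very head of a list. The best placed 3R peak was 62nd, 34th and 30th in lead replicates 1, 2 and 3, and 42nd, 45th and 48th in control replicates 1, 2 and 3. Among the first 100 peaks of a list, the arm held 5, 10 and 10 in the lead libraries and 12, 11 and 11 in the control libraries. Peaks above the 90th percentile made up 7.505%, 7.62% and 9.16% of the 3R peaks in lead libraries and 8.24%, 8.99% and 8.24% in control libraries, all below the 10% that a whole list holds by construction.

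The strongest core regions lay mostly inside genes of varied function. The first by lowest percentile was at 25398201 to 25400251, across Fur1, a furin-type proprotein convertase, and Muc96D, a mucin. Its percentiles were 98.0, 94.996 and 97.7 in the lead libraries and 97.4, 98.2 and 97.8 in the control libraries. The next was at 22374808 to 22375456 in CG7069, with 97.8, 94.1 and 97.4 in lead and 97.1, 96.4 and 97.1 in control libraries. In both regions the percentiles of the groups overlapped.

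A neuronal and a chromatin gene followed among the first 10. At 24699292 to 24699961 in slo, the calcium-activated BK potassium channel, percentiles were 97.3, 96.1 and 97.0 in lead and 94.1, 96.5 and 96.6 in control libraries. At 6433833 to 6434148 in gpp, the histone methyltransferase related to DOT1, they were 92.7, 94.4 and 95.9 in lead and 92.6, 94.2 and 96.1 in control libraries. At 10255492 to 10256584 in Sirt6, an NAD-dependent deacylase, they were 97.9, 92.3 and 97.3 in lead and 97.6, 98.1 and 97.5 in control libraries. Groups overlapped in each of these 3 regions, and lead replicate 2 had the lowest value in Sirt6. The remaining regions of the first 10 lay in ctrip, a ubiquitin ligase, in Rpn2, a proteasome subunit, in lncRNA:CR46474 and in trv, and 316 bp from CG7896, with lowest percentiles between 91.7 and 93.8.

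Regions were unevenly spread along the arm. Counted in 27 full windows of 1 Mb from the boundary outwards, they numbered 12 to 45 per window, with a median of 27. The fullest window, 21200001 to 22200000, held 45 regions, and peaks there numbered 37, 15 and 22 in lead and 19, 22 and 21 in control libraries. The emptiest, 5200001 to 6200000, held 12 regions although 178 genes start in it. The longest stretch without any region was 334056 bp, from 5701387 to 6035442, where 49 genes start. The next fullest window, 9200001 to 10200000, had 42 regions, of which 11 belonged to the core.

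**Figure D2:**
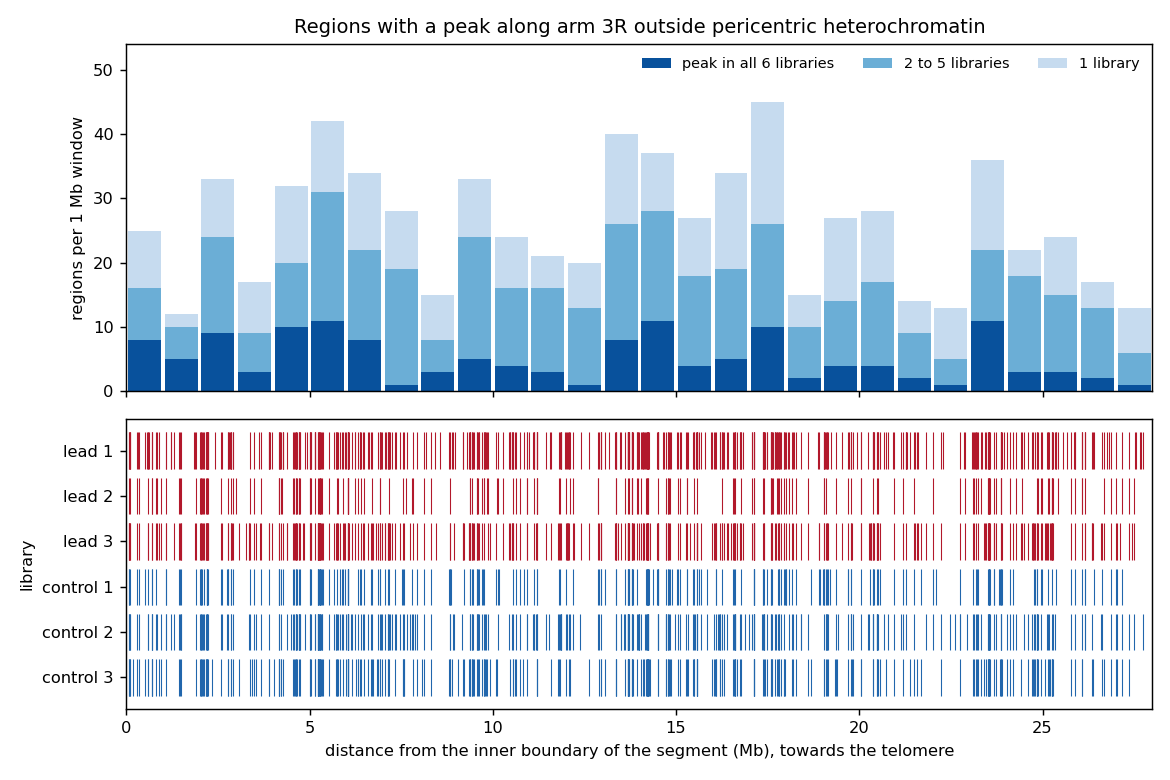
Top, regions per 1 Mb window along the 3R segment (y axis, number of regions; shades, number of libraries with a peak); the last window is shorter, and full windows range from 12 to 45 regions. Bottom, each region with a peak in a library as a vertical line (lead red, control blue); the x axis of both panels is the distance in Mb from the inner boundary of the segment.

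Many regions sat close together. With successive regions joined where the gap was at most 10 kb, 390 of the 728 regions fell into 130 clusters of 2 or more and 338 stood alone. Clusters of 4 or more numbered 32 and held 171 regions, and they numbered 21 without lead replicate 1 and 6 with lists limited to 1379 peaks. Several of the fullest lay inside a single long gene. The largest, at 17878496 to 17909702, had 11 regions, all in Rim, which encodes a scaffold of the presynaptic active zone. Of those 11 regions, 9, 1 and 6 had a peak in the lead libraries and 4, 7 and 7 in the control libraries. The region seen in all 6 libraries, 17882221 to 17882943, had percentiles of 93.2, 40.2 and 89.1 in lead and 81.7, 92.2 and 89.1 in control libraries, the lowest being lead replicate 2.

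The cluster around fru, the transcription factor gene of male courtship behaviour, had 9 regions between 18407342 and 18445723, of which 7 lay in fru and 2 in the neighbouring CG31122. Its regions carried a peak 8, 4 and 6 times in lead and 7, 6 and 7 times in control libraries, and 4 belonged to the core. The strongest, 18417332 to 18417781, had percentiles of 96.0, 91.4 and 93.8 in lead and 93.6, 94.3 and 93.3 in control libraries, which overlap. Over its whole length of 131314 bp fru held 9 regions.

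The cluster over Sirt6 was the densest of the genes with 6 or more regions. This gene of 6501 bp held 6 regions, or 9.23 per 10 kb, and 3 of these were core regions. Counted by library, 5, 5 and 4 of them had a peak in lead and 5, 6 and 5 in control libraries. The second strongest, 10257743 to 10258608, had percentiles of 70.4, 57.1 and 77.1 in lead and 72.0, 69.5 and 87.7 in control libraries, which overlap.

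Other clusters of 6 to 8 regions lay over ps (pasilla, a splicing regulator), InR (the insulin receptor) with E2f1, GluClalpha (a glutamate-gated chloride channel), cpx (complexin, which clamps synaptic vesicle fusion), Syp (an RNA-binding protein), aus and slo. In ps the core region at 9450657 to 9451182 had percentiles of 98.3, 88.7 and 96.6 in lead and 96.4, 96.8 and 90.9 in control libraries. In GluClalpha 7 regions fell within 12.6 kb, and lead replicate 1 had a peak in all 7, against 1 and 5 in lead replicates 2 and 3 and 2, 3 and 4 in control replicates 1, 2 and 3. Lead replicate 1 was also highest and lead replicate 2 lowest in the number of peaks per library, whose part in these counts was not tested.

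A cluster of another kind lay outside genes near Ets98B, which encodes an ETS-domain transcription factor. Between 27725653 and 27736828 it held 5 regions, 4 of them between genes, and 5, 5 and 5 of them had a peak in lead and 4, 5 and 4 in control libraries. The widest, 27726479 to 27728731, lay 7807 bp from Ets98B and spanned 2253 bp. Its percentiles were 97.1, 89.8 and 94.7 in lead and 94.7, 96.5 and 96.6 in control libraries, which overlap. The 2 neighbouring core regions, at 27728995 to 27730101 and 27730329 to 27730879, had lowest percentiles of 69.7 and 66.1. Both were in lead replicate 2, whose median over the core was also the lowest.

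Regions lay mostly inside genes and away from gene ends. Of the 728 regions, 601 (82.6%) overlapped an annotated gene, 29 lay within 1 kb of one and 98 lay farther off. Genes cover 73.2% of the segment's bases. By midpoint, 63.2% of regions lay in a gene and over 1 kb from any gene end, where 49.1% of the segment's bases lie. Within 1 kb of a gene end lay 22.7% of regions, against 32.7% of the bases. Between genes and over 1 kb from an end lay 14.1% of regions, against 18.2% of the bases. Gene interiors held 66.2% of the core and 61.4% of single-library regions by midpoint. A gene was overlapped by 88.0% of the core and 78.7% of single-library regions, and 10.6% and 16.5% lay between genes and over 1 kb from an end. Core regions were wider, and a wider region overlaps a gene more readily. These are descriptions over regions, which are not replicates, and were not tested.

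Of the 4202 genes that start on the segment, 468 (11.1%) had a peak inside or at most 1 kb away and are called marked here, and 148 genes (3.52%) had one in every library. The lead libraries marked 384, 204 and 316 genes and the control libraries 226, 296 and 270. Gene length went with the share of genes marked. Of 3373 genes of up to 5 kb, 5.19% had a peak in at least 1 library (95% Wilson interval 4.49 to 5.99, counting error only). Of 184 genes of 20 to 50 kb it was 63.6% (56.4 to 70.2), and all 15 genes over 100 kb had one. Regions per 10 kb of gene did not climb steadily, with 0.150 in genes of up to 5 kb, 0.261 at 5 to 20 kb, 0.387 at 20 to 50 kb, 0.285 at 50 to 100 kb and 0.496 in the 15 longest genes. The median length was 8857 bp for genes with a peak, against 1776 bp over all genes of the segment.

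The genes with most regions were long and several act in neurons. After Rim with 11 regions came CG45263 with 10, InR and fru with 9, and trv, Gfrl (a GDNF receptor homologue), SKIP and pum (a translational repressor) with 8. InR regions had a peak 8, 2 and 3 times in lead and 3, 4 and 2 times in control libraries. Its high count in lead replicate 1 stood apart from the other 5 libraries. CG45263 regions had a peak 7, 5 and 4 times in lead and 4, 3 and 5 times in control libraries, and those of pum 7, 3 and 4 against 3, 4 and 3. Groups overlapped in each of these genes.

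Among genes of synapses and memory, 16 of the 26 on the segment had a peak in at least 1 library. This share of 61.5% is set beside 11.1% over all genes of the segment. In all 6 libraries 14 had one (53.8%, against 3.52%). With lists limited to 1379 peaks the number in all 6 libraries was 8, and over all genes of the segment it was 116 against 148 with all peaks. The median member had a peak in 6 libraries, against 0 over all genes of the segment. Members were long, with a median of 23340 bp. Among all genes of 20 to 50 kb on the segment, 63.6% had a peak in at least 1 library and 20.1% in all 6. Some members share regions (VAChT, the vesicular acetylcholine transporter gene, lies within ChAT, the choline acetyltransferase gene). Nrx-1, the presynaptic adhesion protein neurexin, had 1 core region with percentiles of 83.7, 73.3 and 88.1 in lead and 83.1, 63.8 and 81.7 in control libraries. Its postsynaptic partner Nlg1, a neuroligin, had 83.7, 51.3 and 74.6 in lead and 75.8, 14.95 and 68.0 in control libraries. Fmr1, the fly fragile X protein, had 80.5, 57.1 and 61.6 in lead and 25.2, 58.9 and 57.4 in control libraries. In all 3 genes the groups overlapped. The active-zone protein gene Rbp had 3 regions and a peak in every library, but none of the 3 was shared by all 6. Syn (synapsin) was marked in 1 lead and 2 control libraries and orb in 1 lead and 0 control libraries. No peak lay at 10 members, among them Syx1A and Snap24 of the fusion machinery and Syt4.

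Receptors for transmitters and peptides had a peak in 11 of 34 members, whose median length was 12233 bp. This share of 32.4% is set beside 11.1% over all genes of the segment and 21.4% over those of 5 to 20 kb. In all 6 libraries 2 receptor genes had a peak (5.88%, against 3.52% and 4.79%): GluClalpha and Octbeta3R, an octopamine receptor. Octbeta3R had percentiles of 71.5, 49.1 and 64.8 in lead and 62.9, 49.7 and 72.0 in control libraries, which overlap. The other 9 had a peak in more lead than control libraries, and 0 in more control libraries. Of these, mAChR-B, Octalpha2R and 5-HT7 had a peak in lead replicate 1 alone. 5-HT2B, at percentile 3.21, and nAChRbeta2 had one in lead replicate 3 alone. Lead replicates 1 and 3 had the longest lists. Over all marked genes of the segment 172 leaned to lead, 76 to control and 220 were even. With lists limited to 1379 peaks, an alternative added after the data were seen, 2 receptor genes leaned to lead and 2 to control, and the whole segment gave 75 and 92. ETHR, the receptor for ecdysis triggering hormone, had peaks in 3 lead libraries at percentiles 35.5, 49.1 and 45.4 and in control replicate 2 at 27.1. Dop1R2, a dopamine receptor, had peaks in lead replicates 1 and 2 at 18.6 and 12.4 and in 0 control libraries. Nmdar1, a subunit of the NMDA-type glutamate receptor, and nAChRalpha1, of the nicotinic receptor, were each marked in 2 lead and 1 control libraries.

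Adhesion and guidance genes had a peak in 23 of 42 members (54.8%, against 11.1% over all genes of the segment). In all 6 libraries 8 of them had one (19.0%, against 3.52%). Members were long, with a median of 22471.5 bp against 1776 bp over all genes of the segment. Among all genes of 20 to 50 kb on the segment, 63.6% had a peak in at least 1 library and 20.1% in all 6. Both shares of the adhesion list lay below these. Of the marked members 4 leaned to lead and 7 to control. With lists limited to 1379 peaks the leaning turned, with 4 to lead and 2 to control among 14 marked members, 5 of them marked in all 6 libraries. The receptor phosphatase gene Ptp99A had 7 regions, none of them shared by all 6 libraries, with a peak 4, 4 and 6 times in lead and 1, 2 and 5 times in control libraries. CASK, a membrane-associated scaffold, had 3 regions, of which 2 belonged to the core. beat-VI, of the Beat family that binds Side proteins, was marked in 3 lead and 1 control libraries. Ion channel genes were marked in 3 of 16 cases (18.75%, against 11.1% over all genes of the segment). These were slo in all 6 libraries, Teh1 in 2 lead and 2 control libraries, and Best1 in 2 lead and 1 control libraries.

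The list of transcription factor genes of neural development had a peak in 28 of 61 members (45.9%, against 11.1% over all genes of the segment). In all 6 libraries 12 of them had one (19.7%, against 3.52%). The median member length was 11829 bp. Among all genes of 5 to 20 kb on the segment, 21.4% had a peak in at least 1 library and 4.79% in all 6. Besides fru, cpo had 6 regions (3 in the core), hth 6 (2), pros 6 (1), Eip93F 5 (2) and pnt 5 (1). cpo encodes an RNA-binding protein, although the list counts it among the 28 and the 12. hth and pros encode homeodomain factors, Eip93F an ecdysone-induced factor and pnt an ETS factor downstream of Ras. The short gene gl, which encodes a zinc finger factor of photoreceptors, had 1 core region within 1 kb, which overlapped lncRNA:CR14310. Its percentiles were 82.2, 73.3 and 83.1 in lead and 71.0, 68.1 and 57.4 in control libraries, the lead values all above the control values. Over the whole series 4.94% of regions with a peak in all 6 libraries showed this order.

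Counts for the homeotic complexes are small and are set beside 11.1% of all genes on the segment. In the Antennapedia complex Antp and Dfd had a peak, of 10 members (20%). Antp, at 102976 bp, had 4 regions with a peak 3, 1 and 2 times in lead and 3, 2 and 2 times in control libraries, none of them in the core. Dfd was marked in 2 lead and 3 control libraries. In the bithorax complex 1 of 3 members (33.3%), abd-A, was marked in 2 lead and 1 control libraries, and Ubx and Abd-B had none. In the Enhancer of split complex of Notch target genes 1 of 12 members (8.33%), E(spl)m6-BFM, was marked, in 2 lead and 1 control libraries.

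In the remaining lists the share of marked genes is again set beside 11.1% of all genes on the segment. Developmental signalling had 14 of 32 listed members (43.75%), with InR, pnt and how in all 6 libraries. Delta, which was left off that list, also had a peak in all 6 libraries. Its percentiles were 93.5, 90.8 and 93.0 in lead and 85.0, 92.8 and 92.7 in control libraries, which overlap. Stress, metal and redox genes had 9 of 44 (20.5%), with Sirt6 and InR in all 6; foxo, which encodes a forkhead factor repressed by insulin signalling, had 3 lead peaks at 86.7, 49.1 and 81.2 and 1 control peak at 55.2. The metallothionein genes MtnA, MtnB, MtnC, MtnD and MtnE, which bind heavy metals, had no peak. Chromatin and DNA methylation genes had 6 of 19 (31.6%), with gpp in all 6 libraries and trx, a histone methyltransferase, in 2 lead and 2 control. The list named circadian had 4 of 8 (50%), namely tws, timeout, tau and dco, with no peak at cry, cwo, Pdf and to. Only dco, the clock kinase Doubletime, was marked in all 6 libraries. Its percentiles were 90.9, 88.0 and 92.2 in lead and 90.4, 80.7 and 92.1 in control libraries. tau had the same best percentiles as Mlc1 of the muscle list (70.4 and 56.6 in lead replicates 1 and 3, 38.7 in control replicate 3). Muscle genes had 5 of 13 (38.5%), eye genes 4 of 21 (19.0%) and germline genes 3 of 18 (16.7%). The marked share was higher in longer genes, and lists were not matched on length.

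**Figure D3:**
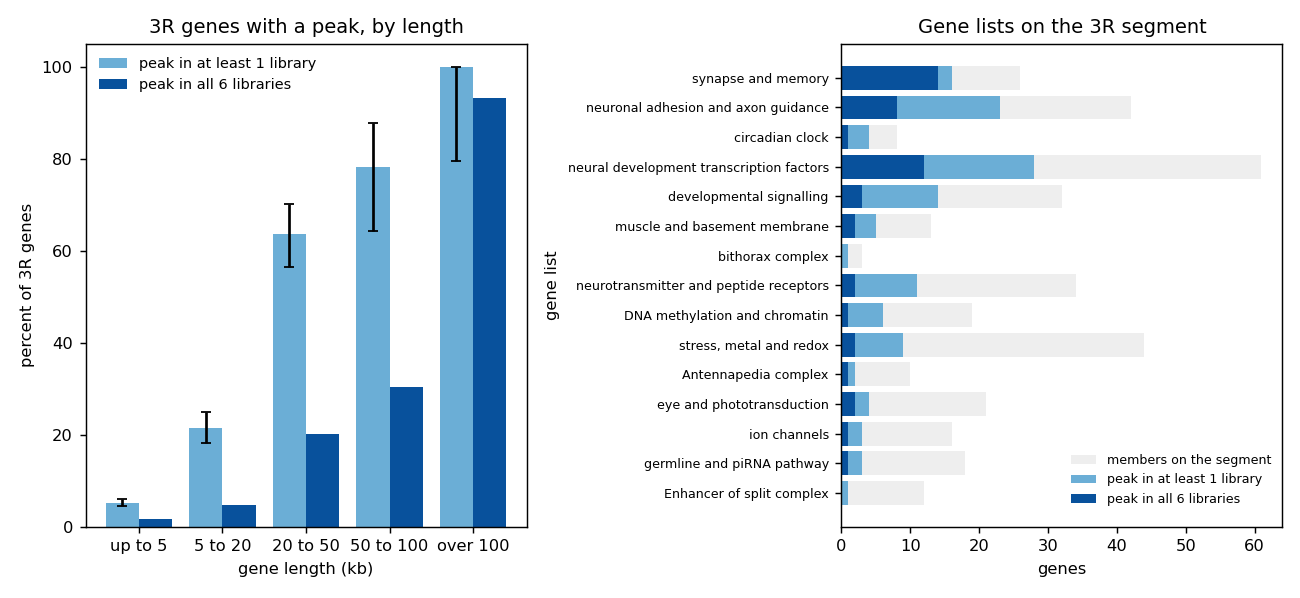
Left, percent of 3R genes with a peak in or within 1 kb (y axis) by gene length in kb (x axis), in at least 1 library (light bars, with 95% Wilson intervals) and in all 6 (dark bars); the shares are 5.19% and 100% in at least 1 library for the shortest and longest class. Right, genes of each list on the segment (grey), with a peak in at least 1 library (light) and in all 6 (dark), where synapse and memory genes have 14 of 26 in all 6 (8 with lists limited to 1379 peaks).

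Lead was compared with control on the 3R segment by 5 measures per library. A two-sided exact permutation test of 3 libraries against 3 cannot go below p = 0.1, so none could pass 0.05. The segment held 533, 223 and 415 peaks in lead and 279, 378 and 352 in control libraries. Lead libraries averaged 390.3 ± 156 and control libraries 336.3 ± 51.3 peaks (SD, n = 3 each), a difference of 54 (exact p = 0.6) that turned to -17.3 without lead replicate 1. The length under these peaks was 136.2 ± 52.0 kb for lead and 118.1 ± 14.2 kb for control (SD, n = 3 each). Without lead replicate 1 this difference of 18.1 kb (exact p = 0.6) also turned, to -4.69 kb. As a share of each library's peaks the segment took 15.1%, 16.2% and 16.4% in lead and 16.0%, 15.7% and 16.3% in control libraries. These shares averaged 15.9% ± 0.662 for lead and 16.0% ± 0.330 for control (SD, n = 3 each; exact p = 0.9). Their difference of -0.0960 points turned to 0.282 without lead replicate 1 and to 0.0706 without control replicate 3.

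The median score percentile of the 3R peaks was 46.8, 49.1 and 47.9 in lead and 51.8, 49.7 and 50.4 in control libraries. All 3 lead values lay below all 3 control values. Lead averaged 47.9 ± 1.11 and control 50.6 ± 1.07, a difference of -2.70 points (SD, n = 3 each; exact p = 0.1, the smallest possible). With the 1379 highest-scoring peaks of each list the difference turned to 0.218 points (exact p = 1). The share of 3R peaks with their midpoint in a gene was 84.9% ± 1.12 for lead and 84.4% ± 1.499 for control (SD, n = 3 each; exact p = 0.7). That difference of 0.534 points turned to -0.0516 without lead replicate 2 and to -0.129 without control replicate 2.

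**Figure D4:**
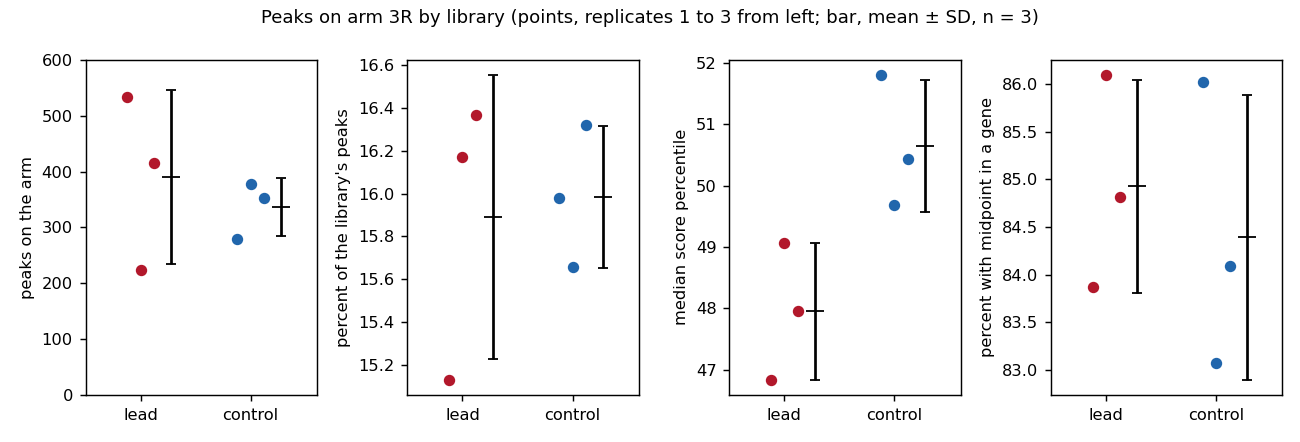
From left to right, number of 3R peaks, percent of the library's peaks on the 3R segment, median score percentile of those peaks and percent with their midpoint in a gene (y axes), for lead (red) and control (blue) libraries; bars give mean ± SD (n = 3 per group), and only the first axis starts at 0. In the third panel all lead libraries (46.8 to 49.1) lie below all control libraries (49.7 to 51.8).

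Very few regions separated the groups completely. Peaks in all 3 lead and no control libraries were found at 3 of the 728 regions (0.412%), against 0.441% over all regions of the series. Peaks in all 3 control and no lead libraries were found at 2 (0.275%), against 0.154% over the series. A test of any 1 such region cannot go below 0.1 (Fisher's exact test). The first count was 28 without lead replicate 2, 7 without lead replicate 3, and 8 and 7 without control replicates 2 and 3. The second count was 6 and 7 without lead replicates 1 and 3, and 5, 4 and 5 without control replicates 1, 2 and 3. Leaving out a library loosens the rule, which by itself lets both counts rise. With lists limited to 1379 peaks the second count was 5, and with scores of at least the median it was 1. Partial leanings were uneven, but no share over the series is set beside them, so they cannot be called particular to 3R. Peaks in 2 lead libraries alone were found at 30 regions and in 2 control libraries alone at 8. Regions called in 2 lead and 1 control libraries numbered 54, against 24 the other way round, and those in 3 and 1 numbered 10, against 9. Regions called in 3 lead and 2 control libraries numbered 28, against 35 the other way round. Lead replicate 1 had the most peaks, and its part in these leanings was not tested.

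Of the regions found with lead alone, 2 ranked low in their lists. At 8911611 to 8912363 in pyd, a junction scaffold of the ZO family, percentiles were 16.1, 14.2 and 3.21 in the lead libraries. At 28634566 to 28634874 in CG10011 they were 13.8, 2.07 and 20.4. The third, 14468269 to 14468559 in cv-c, stood at 69.2, 63.1 and 63.2. pyd as a whole had 7 regions and a peak in all 6 libraries, so its lead-only region was 1 of several. Of the control-only regions, the one at 27426058 to 27426345 in side, a guidance cue of motor axons, ranked highest of the 5, at 85.0, 81.5 and 86.3 in the control libraries. The other, 164 bp from dpr4 at 11543113 to 11543390, stood at 68.9, 60.7 and 61.8. As a whole gene side had 3 regions, 1 of them in the core, and a peak in all 6 libraries.

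Counted as whole genes, cv-c and CG14257 were marked in every lead library and in no control library. The reverse held for dpr4. These were 2 and 1 of the 4202 genes of the segment, against 11 (0.0615%) and 1 (0.0056%) of the 17872 genes of the series. dpr4 is thus the only such gene of the series, so the second share gives no separate background. In CG14257 the lead peaks did not fall in 1 place: lead replicates 1 and 2 had a peak at 27081250 to 27081469, with percentiles of 18.6 and 22.6, and lead replicate 3 at 27082355 to 27082679, with 75.4.

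**Figure D5:**
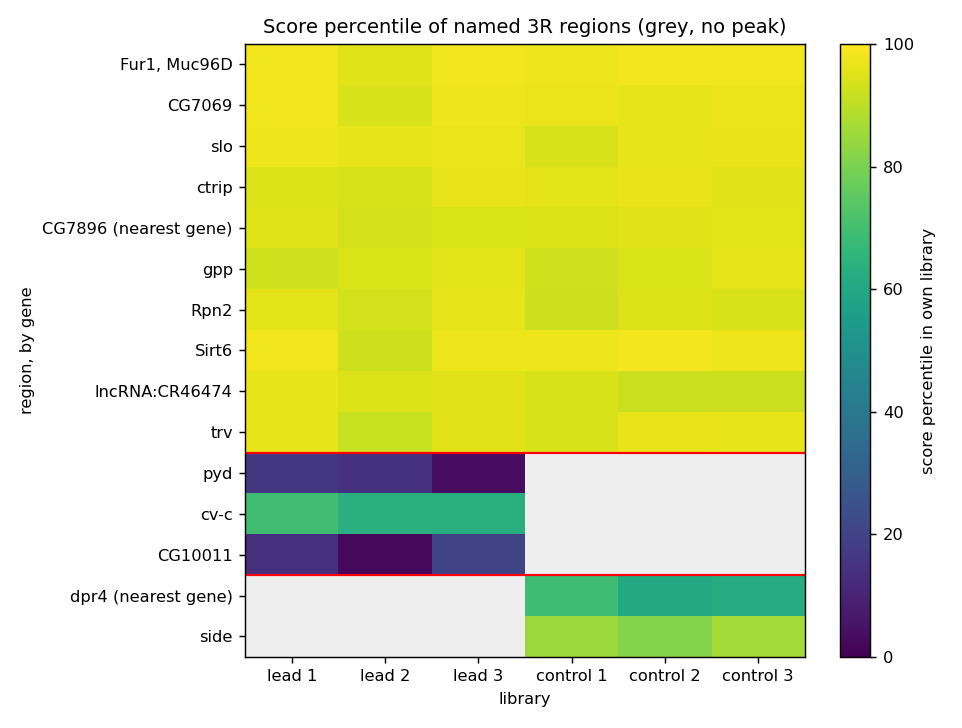
Score percentile in its own library (colour) of 15 regions of the 3R segment (rows, by gene) in the 6 libraries (columns); grey marks no peak. Rows above the first red line are the 10 core regions with the highest lowest percentile (91.7 to 94.996), the next 3 have a peak in lead libraries alone, and the last 2 in control libraries alone.

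Within the core, rank in the lists separated the groups at 12 of the 142 regions, a count made after the data were seen. All 3 lead percentiles lay above all 3 control percentiles at 8 regions (5.63%), against 4.94% of the 890 regions of the series with a peak in all 6 libraries. They lay below at 4 regions (2.82%), against 3.26% over the series. In both directions the arm's share was within 1 percentage point of that of the whole series. The largest lead-low difference of group means, -43.6 points, was at 8376010 to 8376531 in CG45263, with percentiles of 16.1, 16.1 and 2.33 in lead and 57.4, 65.2 and 42.7 in control libraries.

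Among the lead-high core regions, FoxP, the fly member of a forkhead family with roles in learning, had the largest difference of group means, 24.9 points. At 9729919 to 9730411 in this gene percentiles were 90.1, 66.1 and 63.2 in lead and 60.2, 24.0 and 60.5 in control libraries. At 21598646 to 21598929 in InR they were 77.4, 76.7 and 77.9 in lead and 67.7, 38.5 and 59.1 in control libraries, with control replicate 2 lowest in both. The other lead-high regions lay in Hmx, gukh, eff, CG34353, lncRNA:CR14310 and lncRNA:CR46474, and the other lead-low ones in trv, in CASK and across CG42613 and CG43732. Scores can be compared only as ranks, so a higher percentile does not show a higher level.

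Some regions were absent from libraries of both groups although they ranked high elsewhere. At 5149522 to 5149932, 976 bp from dpr16, the percentile was 97.6 and 98.8 in lead replicates 2 and 3 and 96.0 and 96.5 in control replicates 2 and 3, and lead replicate 1 and control replicate 1 had no peak. It was the best ranked 3R peak of both lead replicates 2 and 3. Of the 332 regions found in 2 to 5 libraries, 27 stood above the 60th percentile wherever they were called. No share over the series is set beside this count, so it cannot be called particular to 3R. The 27 include the cv-c, dpr4 and side regions and 1 in Ptp99A at 29461299 to 29461603. The Ptp99A region had 74.5, 81.1 and 81.8 in lead, 90.4 and 85.3 in control replicates 2 and 3 and no peak in control replicate 1. These regions were singled out after their values were seen.

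Set against the other large arms, 3R had fewer peaks per Mb than 3L and more than 2L in each of the 6 libraries. The mean was 13.0 ± 3.88 peaks per Mb on 3R and 15.2 ± 4.26 on 3L outside its pericentric part, whose limit is approximate (SD, n = 6), a difference of -2.15 ± 0.455. On 2L, likewise bounded, it was 10.9 ± 3.21, a difference of 2.15 ± 0.705. The exact sign-flip test over libraries gave p = 0.03125 for each, the smallest possible, and 0.0625 after adjustment over 4 comparisons, which does not pass 0.05. With equal numbers of peaks the differences were smaller, -1.23 and 1.21 peaks per Mb (exact sign-flip test, adjusted p = 0.0417 for each). The median score percentile differed by -0.952 ± 2.23 points from 3L (exact adjusted p = 0.375) and by 1.01 ± 0.856 points from 2L (exact adjusted p = 0.167). With equal numbers the difference from 3L was -4.45 points (exact adjusted p = 0.0417). This comparison then also reached the smallest possible p, which is why the adjusted p for peaks per Mb fell below 0.05.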

How the data were processed

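Per the submitters' processing notes, cutadapt and Bowtie2 2.1.0 were used with the dm6 build. What called the peaks, and at what threshold, is not given in the sources used here. The authors deposited 1 peak list per library, called against that library's own input and not pooled, with a whole-number score per peak that was used only as a rank within its list. Repeated rows were dropped, coordinates are 1-based, and percentiles give ties their mean rank. Gene positions are those of RefSeq for Release 6 of the genome, without strand or exons. No genome sequence was used and the promoter comparison was not run.

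Lead and control means were compared by exact permutation over the 6 libraries (20 assignments), and arms by exact sign flips (64, Benjamini-Hochberg adjusted). Spans end at the last annotated gene on 3R, and on 3L and 2L at approximate limits of the pericentric parts, chosen here and not taken from an annotation, on which the peaks per Mb depend. Alternatives were a score of at least the overall median (47), the 1379 highest-scoring peaks per library, a boundary of 5000000, merging within 100 bp, genes with 1 kb on either side, leaving out each library and the replicate block. Functions were tested on simulated peaks.

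The members and lists were chosen with earlier results of these data known. The lists do not hold every gene of their class: Delta, Nlg4, Oamb and side-VI were marked but were in none of them. Named were up to 10 core regions by lowest percentile, all one-group regions, up to 8 clusters, up to 10 genes with most regions, and up to 4 members of each list with most libraries or the largest group difference. Others were named after their values were seen. Intervals cover counting error only. The tools were Python 3.11.15 with pandas 2.3.3, numpy 2.4.6, matplotlib 3.10.9 and scipy 1.17.1.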

Additional observations from a re-analysis of the deposited data

How the results depend on the processing

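Across the alternatives 135 values were recomputed, and 100 stayed on the same side of the threshold, in the same direction, or within 1.5 times of the count. Of the others, 22 counts moved beyond that limit, 10 differences turned in direction and 3 arm comparisons passed 0.05 after adjustment. For the 2 in peaks per Mb the unadjusted p was already the smallest possible with all peaks, and the differences became smaller. Exact group tests cannot go below p = 0.1, nor sign-flip tests without a library below 0.0625, so staying above 0.05 was fixed there. Read depth is unknown, which limits every statement on absent peaks. With equal numbers of peaks the group differences turned to -18 peaks, -3.86 kb and 0.218 percentile points. The same setting gave 5 control-only regions, 91 regions with a peak in every library and 6 clusters of 4 or more, and, against other arms, -1.23 (3L) and 1.21 (2L) peaks per Mb and -4.45 percentile points (3L), each with an exact adjusted p of 0.0417. With scores of at least the median, control-only regions numbered 1, regions in every library 74 and clusters of 4 or more 6, and the percentile difference from 2L turned to -2.80. Beyond fewer peaks, the cause was not tested.

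Without each library in turn, group differences ranged from -17.3 to 137.7 peaks, -0.333 to 0.282 points of share, -4.69 to 46.4 kb, -3.25 to -2.12 percentile points and -0.129 to 1.35 points in genes. There were 4 to 28 lead-only and 2 to 7 control-only regions, 142 to 175 regions in every remaining library and 21 to 32 clusters of 4 or more. The rule for one-group and every-library regions is looser without a library, which by itself lets those counts rise. Differences from 3L ranged from -2.29 to -2.06 peaks per Mb and -1.59 to -0.294 percentile points, and those from 2L from 1.91 to 2.32 and 0.777 to 1.21; with 5 libraries the smallest unadjusted sign-flip p is 0.0625. Settings on regions in every library, clusters and gene lists were added after the data were seen.

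The labels do not say that replicate numbers pair the samples, and equal numbers did not deviate together (correlations -0.0192, 0.00617 and 0.0664 over the 728 regions). The replicate block left the differences of 54 peaks, -0.0960 points, 18.1 kb, -2.70 and 0.534 points and the counts of 3 and 2 regions as they were, and its smallest exact p is 0.25.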

Other observations

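Genes of noncoding RNA on the 3R segment also carried peaks. Of 424 long noncoding RNA genes, 42 had a peak in or within 1 kb, 11 of them in all 6 libraries. This share, 9.91%, was below the 11.1% over all genes of the segment and above the 5.19% of genes up to 5 kb. Of 58 microRNA genes, 6 (10.3%) had one, and mir-13a and mir-13b-1 had a peak in all 6 libraries. Of 79 transfer RNA genes 1 (1.27%) had a peak. Many of these short genes lie in or beside protein-coding genes, and a peak within 1 kb can belong to the neighbour.

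Among core regions over 1 kb from any gene, 2 lay far from annotation. One at 14946180 to 14946552 was 22419 bp from lncRNA:CR45598, the nearest gene, with a lowest percentile of 50.4. The other, at 10916839 to 10917262, was 18258 bp from lncRNA:CR45578, with a lowest percentile of 2.33.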
